A study of Homo sapiens with 6 samples.

Results

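Tetraspanins, the uroplakins related to them and the TM4SF genes were measured by RNA sequencing in the established human cell line PLC/PRF/5, which comes from a hepatocellular carcinoma. The family was taken from the gene symbols and the annotated type in the count table, as protein-coding genes named TSPAN or TM4SF with a number, together with CD9, CD37, CD53, CD63, CD81, CD82, CD151, UPK1A and UPK1B. It holds 37 of the 60623 genes in the table. All 6 libraries came from PLC/PRF/5 cells given a lentiviral vector, 3 labelled as receiving one that overexpresses the zinc finger transcription factor ZFP64 (ZFP64-OE) and 3 labelled as receiving a control vector. Neither the promoter of the vector nor whether the cells are a single clone is stated in the labels. Members entered by symbol alone, but the family itself was selected on its measured differences between these groups. Its fold changes and p-values, the counts of members and their median are therefore descriptions and support nothing about the family as a whole. Adjusted p-values come from edgeR (quasi-likelihood F-test; Benjamini-Hochberg over all 19173 genes tested), with a threshold of 0.05. SE stands for the standard error.

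Tetraspanins are small proteins with several membrane-spanning segments, a short and a large extracellular loop, and cysteines that carry palmitate. They bind one another and partner proteins such as integrins, immunoglobulin-family proteins and the sheddase ADAM10, and so place these partners in membrane microdomains and in extracellular vesicles. UPK1A and UPK1B are the tetraspanins among the uroplakins, which pair with UPK2 and UPK3A in the plaques of bladder epithelium. TM4SF1, TM4SF4, TM4SF5, TM4SF18, TM4SF19 and TM4SF20 belong to the L6 family, which has a similar layout in the membrane but a different sequence ancestry. Several L6 proteins are known from liver, gut and their tumours.

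The ZFP64-OE-labelled libraries held between 35109227 and 39739674 counts and those labelled control between 26468949 and 37466920. ZFP64 itself went against the labels. Its level was 35.0, 35.6 and 31.5 CPM (counts scaled to a common library total with TMM factors) in the ZFP64-OE-labelled libraries and 142, 160 and 138 CPM in the control-labelled ones. That is a log2 fold change of -2.11 (SE 0.0867, edgeR FDR-adjusted p = 2.31e-12). Every direction below is therefore that of the ZFP64-OE-labelled libraries relative to those labelled control, whatever the vector they carried. Whether replicates were separate cultures is not labelled, and the p-values then reflect only the spread among these samples, which may be technical. Of the hepatocyte markers, 7 of 8 passed the filter on low counts, among them HNF4A at 307 ± 9.93 and 315 ± 22.2 CPM (SD, n = 3), while TTR had at most 3 counts in a library. Of the 7, ALB, FGB, AFP and APOB rose and SERPINA1 and APOA1 fell. The call of APOB was lost in 3 of 13 alternative settings. APOB made up most of the list's sum, 14782 to 20052 CPM in the ZFP64-OE-labelled group against 11765 to 16835 CPM, and these ranges overlap. The part of these markers in any result below was not tested.

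The members that passed the test were all lower in the ZFP64-OE-labelled libraries. Of the 30 members with enough counts to be tested, 7 fell, 0 rose and 23 did not pass; over all tested genes, 5.81% passed, 4.03% lower and 1.78% higher. The 7 were UPK1B, TSPAN8, TM4SF4, TSPAN4, TM4SF1, TM4SF18 and TSPAN15. UPK1B fell to 23.3% of the control level and the other 6 to between 65.0% and 80.1% of the control level. No member was called higher by any of the other tools or settings tried. The median log2 fold change came to -0.23 over the 30 members and -0.02 over all tested genes. Nothing is read from these shares, since the contrast was known when the family was picked.

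Start regions of 4 of the 7 genes are shown because these 4 lie on chromosome 3, UPK1B alone and TM4SF18, TM4SF1 and TM4SF4 side by side. Each run is the 250 bases before the RefSeq transcript start (GRCh38.p14), 5′ to 3′ on the strand of the gene. These starts differ from the GENCODE gene bounds given below. By those bounds the windows of TM4SF18 and TM4SF4 lie inside the gene, and those of UPK1B and TM4SF1 run across its start. Capitals mark any match, on either strand, to a short motif. TATAAA is the TATA box and GGGCGG the GC box. TGANTCA is bound by AP-1. GGAATG is the core bound by TEAD factors and is read as CATTCC on the other strand. No 2 of the marked matches overlap. As a check, bases just after each window were searched for in GENCODE v29 transcripts of the same gene. They were found in 2 transcripts of TM4SF18, 3 of TM4SF1 and 2 of TM4SF4, but in 0 of UPK1B. The UPK1B window failed this check, and its place before the start is uncertain.
UPK1B, chr3:119173348-119173597, plus strand: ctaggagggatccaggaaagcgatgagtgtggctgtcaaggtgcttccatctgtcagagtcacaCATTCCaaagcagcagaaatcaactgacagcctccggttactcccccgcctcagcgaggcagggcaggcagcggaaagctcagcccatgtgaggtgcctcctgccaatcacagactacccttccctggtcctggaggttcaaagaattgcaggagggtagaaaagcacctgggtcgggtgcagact
TM4SF18, chr3:149333637-149333886, minus strand: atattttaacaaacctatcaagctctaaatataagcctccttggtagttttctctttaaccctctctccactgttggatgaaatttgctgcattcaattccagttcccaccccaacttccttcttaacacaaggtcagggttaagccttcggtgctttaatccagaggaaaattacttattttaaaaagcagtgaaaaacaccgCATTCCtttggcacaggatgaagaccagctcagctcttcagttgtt
TM4SF1, chr3:149377650-149377899, minus strand: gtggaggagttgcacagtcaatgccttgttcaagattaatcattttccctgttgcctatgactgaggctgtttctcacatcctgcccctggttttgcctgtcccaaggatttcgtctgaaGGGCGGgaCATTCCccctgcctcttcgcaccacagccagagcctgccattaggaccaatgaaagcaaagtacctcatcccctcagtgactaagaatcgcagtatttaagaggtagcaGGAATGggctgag
TM4SF4, chr3:149474447-149474696, plus strand: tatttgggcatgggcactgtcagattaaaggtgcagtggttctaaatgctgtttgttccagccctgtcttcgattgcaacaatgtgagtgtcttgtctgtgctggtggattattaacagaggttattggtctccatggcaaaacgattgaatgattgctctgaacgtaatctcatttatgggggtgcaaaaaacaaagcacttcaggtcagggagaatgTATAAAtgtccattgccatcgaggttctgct

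GGAATG stood in the windows of UPK1B, TM4SF18 and TM4SF1, the last with 2 matches, and not in that of TM4SF4. TM4SF4 held the TATAAA match, whose first base lay 31 bases before the RefSeq start. Windows were found for 29 of the 37 members, 1 per gene. GGAATG was in 4 of the 7 windows of genes that fell, in 3 of the 17 of tested genes that did not pass, in 11.9% of 27305 windows of all genes and in 9.59% of the 11529 windows of tested genes. GGGCGG was in 4 of the 7 and in 7 of the 17, with 42.3% of all windows and 64.6% of those of tested genes. TATAAA was in 1 of the 7 and 1 of the 17, with 11.1% and 5.82%. TGANTCA was in 0 of the 7 and 3 of the 17, with 6.60% and 3.96%. These are matches of letters in 1 window, which say nothing on binding, and the motifs were picked after the fold changes were known.

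UPK1B had the largest change of the family. Uroplakin Ib, its product, leaves the endoplasmic reticulum alone and pairs with UPK3A in the bladder plaque. The gene (ENSG00000114638, chromosome 3, 119173517 to 119205153 on GRCh38) was at 7.25, 8.21 and 7.36 CPM in the ZFP64-OE-labelled libraries and at 37.0, 31.2 and 30.1 CPM in the control-labelled ones. The 3 ZFP64-OE-labelled libraries lay close together and far below all 3 labelled control, of which replicate 1 was the highest. The log2 fold change came to -2.10 (SE 0.103, 95% interval -2.32 to -1.89, edgeR FDR-adjusted p = 4.75e-11). Counted from the smallest p, it ranked 4 among all genes tested. The call held under all 13 alternatives, with log2 fold changes between -2.16 and -1.85. Per length, UPK1B stood at 3.33 ± 0.210 FPKM (counts per length and library total, as the authors deposited them; SD, n = 3) in the ZFP64-OE-labelled libraries and 14.6 ± 0.996 FPKM in the control-labelled ones.

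The companion tetraspanin UPK1A, whose product pairs with UPK2, did not pass. It was measured at 12.5, 15.5 and 12.6 CPM in the ZFP64-OE-labelled libraries and at 14.5, 19.4 and 12.1 CPM in the control-labelled ones, with overlapping groups. Its log2 fold change came to -0.18 (95% interval -0.49 to 0.13, edgeR FDR-adjusted p = 0.562), and its sign depended on control-labelled replicate 2. The FPKM ratio of UPK1B to UPK1A was between 0.321 and 0.354 in the ZFP64-OE-labelled libraries and between 0.975 and 1.55 in the control-labelled ones. Reads of UPK1A may include its antisense partner UPK1A-AS1, which overlaps 18.9% of its exon bases, since no strand setting is given.

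The partners of the uroplakins were close to undetected. UPK2 had between 1 and 7 counts in a library and was not tested. UPK3A was at 0.296 ± 0.0715 CPM in the ZFP64-OE-labelled libraries and 0.516 ± 0.119 CPM in the control-labelled ones, and UPK3B at 0.512 ± 0.1004 and 0.962 ± 0.182 CPM (SD, n = 3). Neither passed (edgeR FDR-adjusted p = 0.232 and 0.0712), although the ZFP64-OE-labelled values were the lower ones throughout for both. Of 6 markers of urothelium, 3 could be tested and 1 passed, the keratin KRT20, at 8.70 ± 0.0686 against 16.8 ± 0.960 CPM (a log2 difference of -0.95, edgeR adjusted p = 2.44e-06). GATA3 was at 5.44 ± 0.251 against 6.10 ± 0.166 CPM and did not pass (edgeR FDR-adjusted p = 0.523). KRT20 and GATA3 made up nearly all of the list's sum, 14.3 to 14.97 CPM in the ZFP64-OE-labelled libraries and 22.3 to 24.6 CPM in the control-labelled ones. The difference in the sum is thus mostly that of KRT20. KRT5 and TP63, which define basal urothelium, had mean levels of at most 0.0521 CPM in either group. The part of these markers in the change of UPK1B was not tested.

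**Figure D1:**
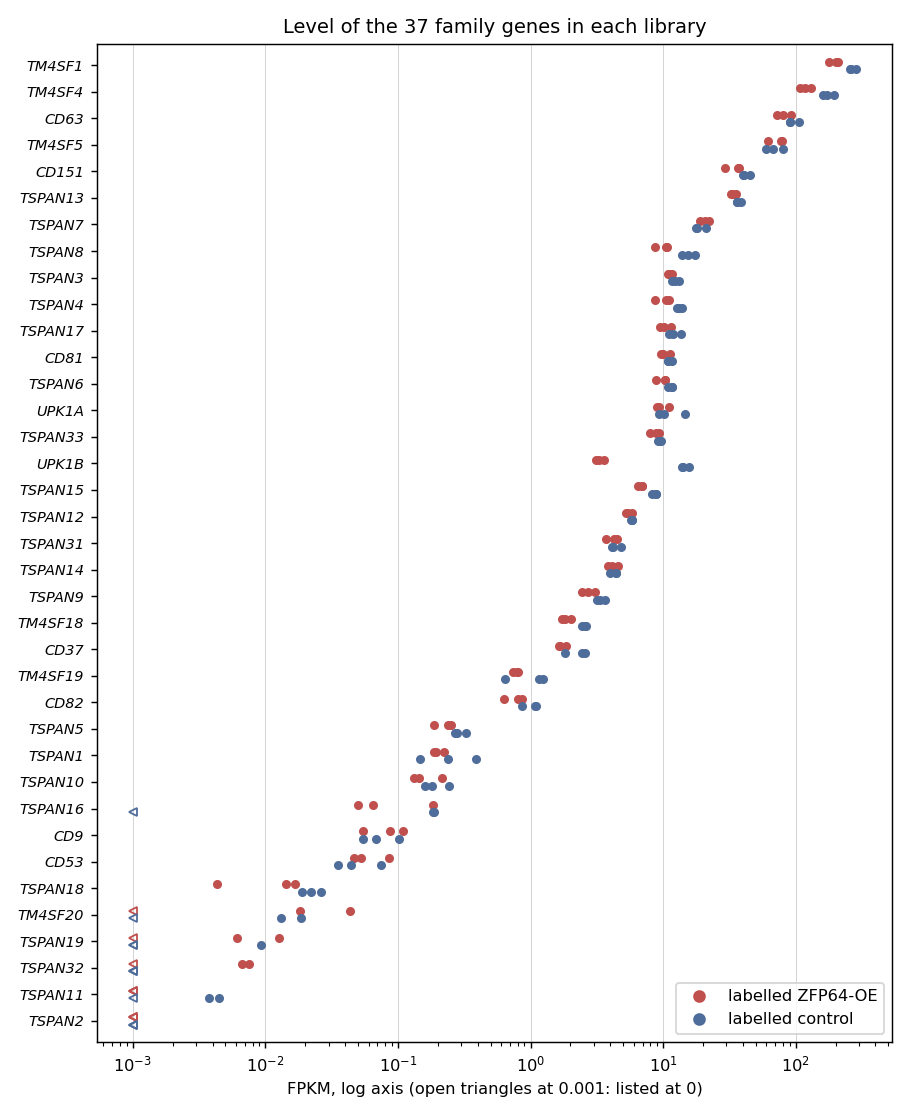
FPKM of each of the 37 members (x axis, log scale) in each of the 6 libraries, ordered by the mean, with red points for libraries labelled ZFP64-OE and blue for those labelled control. TM4SF1 and TM4SF4 stand at the top with all red points left of the blue ones, UPK1B shows the widest gap, and TSPAN2 is listed at 0 in every library.

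The L6 family supplied the most abundant transcripts and 3 of the 7 falls. Of its genes 5 were tested, and 4.03% of all tested genes fell. TM4SF1 encodes the L6 tumour antigen, a surface protein of carcinomas and endothelium, and TM4SF4 a related protein of liver and intestine. TM4SF1 had the highest mean FPKM of the family, 30.5% of the family's sum, followed by TM4SF4 with 19.4%. Together they made up 46.3% to 47.7% of the family's FPKM in the ZFP64-OE-labelled libraries and 51.7% to 52.4% in the control-labelled ones. The summed FPKM of the L6 genes was 391 ± 36.1 against 517 ± 44.9 (SD, n = 3). That of the tetraspanins other than UPK1B was 277 ± 19.95 against 321 ± 19.8. In bulk RNA, fewer cells that express a gene and less RNA per cell cannot be told apart.

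TM4SF4 (ENSG00000169903, chromosome 3, 149473974 to 149503281) was at 168, 185 and 200.3 CPM in the ZFP64-OE-labelled libraries and at 254, 292 and 253 CPM in the control-labelled ones. The groups did not overlap, with a wide gap between them. Its log2 fold change came to -0.53 (SE 0.0925, edgeR FDR-adjusted p = 0.000881), and the call held under all 13 alternatives (adjusted p up to 0.0458). TM4SF1 (ENSG00000169908, 149369022 to 149377865) was at 639, 723 and 727 CPM against 932, 978 and 872 CPM, again without overlap. Its log2 fold change came to -0.41 (SE 0.0998, adjusted p = 0.0154). The call was lost without ZFP64-OE-labelled replicate 1 or 2 or control-labelled replicate 2 (adjusted p up to 0.138), and with limma on log2(FPKM + 1).

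TM4SF18, a close relative about which little is known, was much less abundant. It (ENSG00000163762, 149318498 to 149334414) was at 7.76, 8.98 and 7.84 CPM in the ZFP64-OE-labelled libraries and at 11.03, 11.04 and 10.997 CPM in the control-labelled ones. The control-labelled libraries, with 281, 424 and 362 counts, lay almost on one value, and the groups did not overlap. The log2 fold change came to -0.43 (SE 0.109, edgeR FDR-adjusted p = 0.0229). It lost the call without any 1 of 4 libraries, ZFP64-OE-labelled replicates 1 and 3 and control-labelled replicates 2 and 3 (adjusted p up to 0.118), and in both limma fits on FPKM.

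The L6 genes outside this cluster did not pass or were too low to test. TM4SF5 on chromosome 17, linked to liver tumours and fibrosis, was abundant, at 59.3, 75.4 and 71.7 CPM in the ZFP64-OE-labelled libraries and 58.1, 73.4 and 59.7 CPM in the control-labelled ones. Its groups overlapped almost entirely, and its log2 fold change was 0.11 (95% interval -0.10 to 0.32, edgeR FDR-adjusted p = 0.621). TM4SF19, far from the cluster on chromosome 3, was near 1 FPKM, with a log2 fold change of -0.35 (95% interval -0.82 to 0.12). It shares 42.9% of its exon bases with the read-through gene TM4SF19-TCTEX1D2, so its value is uncertain. TM4SF20 had at most 5 counts in a library and was not tested.

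TM4SF18, TM4SF1 and TM4SF4 lie in that order on chromosome 3, with gaps of 34607 and 96108 bases between them. Of 19 genes tested within 500 kb of the cluster, 4 fell and 0 rose. Beside the 3 TM4SF genes, the other was AC108751.5, a processed pseudogene within the span of TM4SF4 on the same strand (log2 fold change -0.48, edgeR FDR-adjusted p = 0.0368). Its value is uncertain because it lies inside that gene. Beside TM4SF18, the low genes AC093001.1 and CPHL1P had log2 fold changes of -0.66 (SE 0.390) and -0.41 (SE 0.227). Neither passed (edgeR FDR-adjusted p = 0.387 and 0.343). The next genes on each side with more than 10 CPM did not pass either. Ceruloplasmin, CP, at 442 ± 50.7 against 525 ± 31.2 CPM, had a log2 fold change of -0.25 (adjusted p = 0.179), and WWTR1, which encodes the TEAD coactivator TAZ, one of -0.25 (adjusted p = 0.138). TM4SF1-AS1, which overlaps 2.40% of the exon bases of TM4SF1, was at 1.36 ± 0.336 and 1.63 ± 0.0617 CPM and did not pass. Around UPK1B, 8 genes were tested within the same distance and UPK1B was the only call; the nearest, B4GALT4, had a log2 fold change of -0.24 (adjusted p = 0.0761). On the whole of chromosome 3, 3.85% of 1039 tested genes fell and the median log2 fold change came to -0.01.

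**Figure D2:**
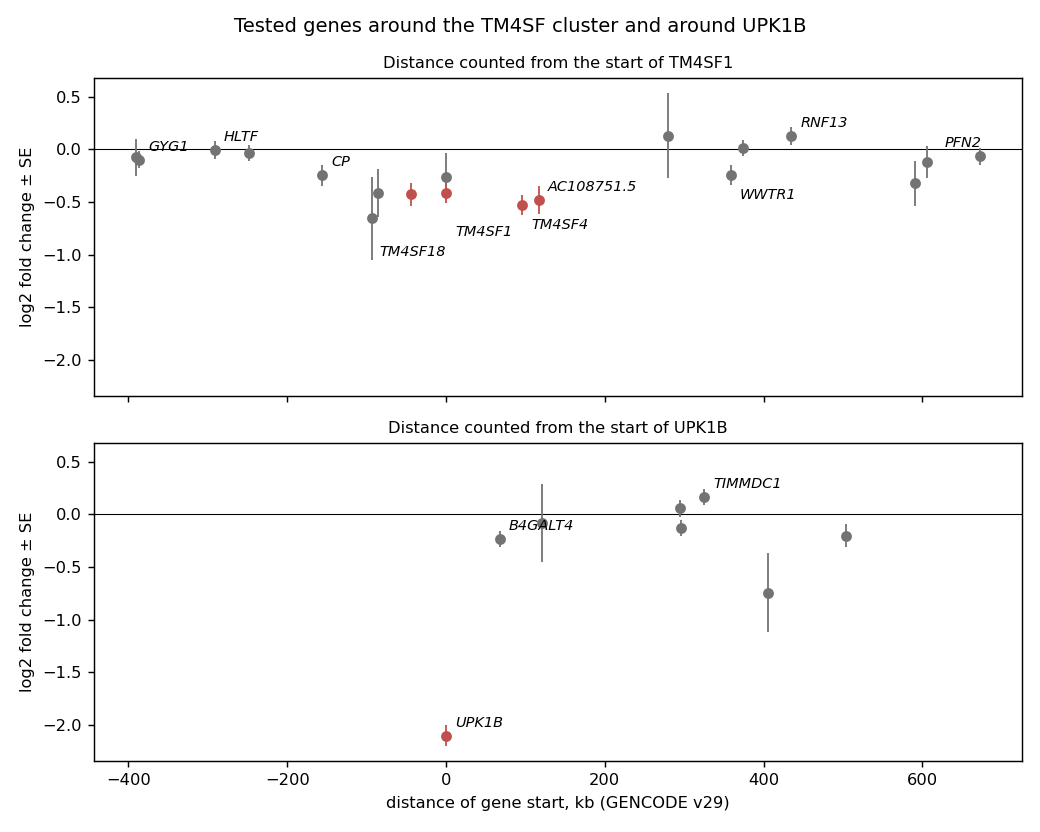
Log2 fold change with its standard error for each tested gene within 500 kb of the TM4SF cluster (upper) and of UPK1B (lower), against the distance of its start from that of TM4SF1 or UPK1B in kb; red marks genes past the threshold. The 3 TM4SF genes and AC108751.5 lie between -0.41 and -0.53. The low genes CPHL1P and AC093001.1, at -0.41 and -0.66 with larger standard errors, did not pass. UPK1B at -2.10 stands alone among its neighbours.

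TSPAN8 had the second smallest p of the family. It encodes a tetraspanin of gastrointestinal and liver tumours that is found on their extracellular vesicles. TSPAN8 (ENSG00000127324, chromosome 12, 71125085 to 71441898) was at 21.4, 26.5 and 25.3 CPM in the ZFP64-OE-labelled libraries and at 35.0, 41.4 and 35.8 CPM in the control-labelled ones. The groups stood apart, with every ZFP64-OE-labelled library the lower. The log2 fold change came to -0.62 (SE 0.0940, edgeR FDR-adjusted p = 0.000197), 65.0% of the control level, and the call held under all 13 alternatives (adjusted p up to 0.0361). By mean FPKM, TSPAN8 ranked 8 among the 37 members, at 9.95 ± 1.13 against 15.7 ± 1.82 FPKM (SD, n = 3).

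TSPAN4, a tetraspanin of migrasomes, the vesicles left on the trailing fibres of migrating cells, changed less. TSPAN4 (ENSG00000214063, chromosome 11, 842808 to 867116) was at 52.1, 62.7 and 64.5 CPM against 76.9, 79.0 and 73.8 CPM. Replicate 1 labelled ZFP64-OE was the lowest, and the groups did not overlap. The log2 fold change of -0.36 (SE 0.0852, edgeR FDR-adjusted p = 0.0138) lost its call without that library (adjusted p = 0.120) or control-labelled replicate 2 (adjusted p = 0.0549). Both limma fits on FPKM lost it too. Its neighbour CD151, a partner of laminin-binding integrins, ends 2976 bases before TSPAN4. CD151 was at 117, 145 and 144 CPM against 164, 171 and 149 CPM, with a log2 fold change of -0.25 (95% interval -0.45 to -0.06) that did not pass (adjusted p = 0.127).

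Tetraspanins of the TspanC8 group escort the sheddase ADAM10 out of the endoplasmic reticulum and steer it to its substrates. Of the 6, 1 fell and 5 did not pass, where 4.03% of all tested genes fell, and nothing is read from so few. The one was TSPAN15, which directs ADAM10 to N-cadherin. TSPAN15 (ENSG00000099282, chromosome 10, 69451473 to 69507669) was at 17.6, 18.8 and 18.4 CPM in the ZFP64-OE-labelled libraries and at 22.6, 23.1 and 22.6 CPM in the control-labelled ones. The spread within both groups was small, with a gap between them. Its log2 fold change came to -0.32 (SE 0.0846, edgeR FDR-adjusted p = 0.0285), and leaving out ZFP64-OE-labelled replicate 1 or 2 or control-labelled replicate 2 or 3 lost the call (adjusted p up to 0.138).

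Of the other TspanC8 genes, TSPAN17, TSPAN33 and TSPAN14 were the more abundant. TSPAN17 was at 54.9 ± 4.80 against 63.0 ± 5.96 CPM, with a log2 fold change of -0.20 (95% interval -0.38 to -0.02, edgeR FDR-adjusted p = 0.207). TSPAN33 had a log2 fold change of -0.08 (95% interval -0.26 to 0.10) and TSPAN14 one of 0.00 (95% interval -0.19 to 0.19). TSPAN5 and TSPAN10 were under 0.3 FPKM in both groups, with intervals from -0.74 to 0.08 and from -0.80 to 0.37. ADAM10 itself was at 252 ± 27.9 and 255 ± 29.6 CPM (log2 fold change -0.01, adjusted p = 0.969). Of the list of ADAM10 and 6 of its substrates, 0 of 7 passed; the substrate N-cadherin, CDH2, was at 2.13 ± 0.345 and 2.39 ± 0.655 CPM.

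**Figure D3:**
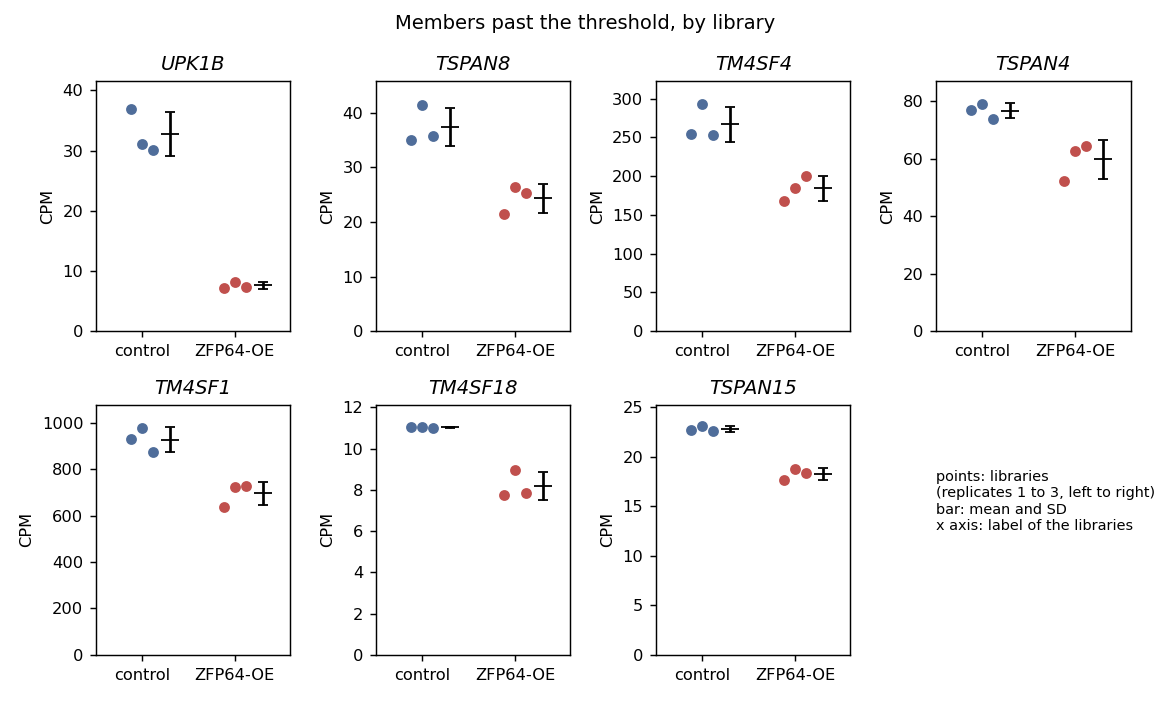
CPM (y axis, from 0) of the 7 members past the threshold in each library, with the mean and SD (n = 3) beside the points. In each panel all 3 ZFP64-OE-labelled libraries lie below all 3 labelled control; relative to the control level the gap is widest for UPK1B, at 7.61 ± 0.522 against 32.7 ± 3.70 CPM.

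None of the members with CD numbers passed, although those tested covered a wide range of levels. CD63, a tetraspanin of late endosomes and lysosomes that is used as a marker of exosomes, was the third most abundant member. It was at 194, 216 and 240.4 CPM in the ZFP64-OE-labelled libraries and 247, 271 and 229 CPM in the control-labelled ones, with overlapping groups. Its log2 fold change came to -0.20 (95% interval -0.40 to just below 0, edgeR FDR-adjusted p = 0.255). CD81, a receptor used by hepatitis C virus on hepatocytes, was at 77.2 ± 6.39 and 81.7 ± 4.11 CPM, with a log2 fold change of -0.08 (95% interval -0.25 to 0.09). CD82, which is known as a metastasis suppressor, was near 1 FPKM, with a log2 fold change of -0.37 (95% interval -0.71 to -0.04, adjusted p = 0.206).

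CD9, usually one of the most widespread tetraspanins, was close to undetected. Its counts were 14, 9 and 16 in the ZFP64-OE-labelled libraries and 6, 16 and 9 in the control-labelled ones, or 0.0838 ± 0.0277 and 0.0752 ± 0.0247 FPKM. The 95% interval of its log2 fold change ran from -0.71 to 0.99, too wide at this depth to tell a rise from a fall. EPCAM, a partner of CD9 in epithelial cells, was also low, with 4 to 24 counts in a library.

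CD37 and CD53 are tetraspanins of leukocytes, and neither passed the test. CD53 had at most 7 counts in a library and was not tested. CD37 was at 6.93, 7.05 and 7.70 CPM in the ZFP64-OE-labelled libraries and 7.93, 9.90 and 10.3 CPM in the control-labelled ones, with a log2 fold change of -0.38 (edgeR FDR-adjusted p = 0.0796). It passed without control-labelled replicate 1 (adjusted p = 0.0204). Of its exon bases, 7.67% overlap TEAD2 on the opposite strand, and without a stated strand setting reads of the 2 genes cannot be told apart there. Of 8 markers of leukocytes, 2 could be tested, PTPRC and MS4A1 were at 0 counts in all libraries, and CD3E and CD14 had mean levels under 0.1 CPM. LYZ, the one that passed, fell by 0.61 on the log2 scale and made up nearly all of the list's sum, 320 to 388 CPM in the ZFP64-OE-labelled libraries and 522 to 574 CPM in the control-labelled ones. The part of these markers in the level of CD37 was not tested.

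The remaining tetraspanins gave no further call. TSPAN7 and TSPAN13, both above 15 FPKM, had log2 fold changes of 0.16 (95% interval -0.04 to 0.36) and -0.09 (95% interval -0.25 to 0.07). TSPAN7 had the highest fold change of the family, and the counts of its neighbour AF241726.2, which shares 21.7% of its exon bases on the same strand, cannot be kept apart from its own. TSPAN9, which is known from platelets, was at 17.1, 21.7 and 18.6 CPM against 22.9, 24.7 and 22.2 CPM, without overlap, and did not pass (log2 fold change -0.28, edgeR FDR-adjusted p = 0.101). TSPAN12, a coreceptor of the Norrin receptor FZD4, was at 18.5 ± 1.18 and 19.0 ± 0.875 CPM (95% interval of the log2 fold change -0.23 to 0.15). TSPAN31 overlaps CDK4 on the opposite strand over 25.4% of its exon bases, and its log2 fold change of -0.04 is uncertain for that reason. TSPAN3 and TSPAN6 had log2 fold changes of -0.11 and -0.19 (adjusted p = 0.520 and 0.219). TSPAN1 and TSPAN16 were under 0.3 FPKM in both groups, with wide intervals.

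Besides CD53 and TM4SF20, 5 members were not tested, TSPAN2, TSPAN11, TSPAN18, TSPAN19 and TSPAN32. None of the untested members had more than 7 counts in any library, and TSPAN2 had 0 in all. By level, 14 of the 37 members had a mean of at least 10 FPKM, 9 lay between 1 and 10 FPKM and 14 were lower. The 5 most abundant, TM4SF1, TM4SF4, CD63, TM4SF5 and CD151, held 75.8% of the family's FPKM. In this order TM4SF1 and TM4SF4 differed beyond their spread, at 197 ± 15.9 and 119 ± 12.1 FPKM in the ZFP64-OE-labelled libraries, while CD63 and TM4SF5, at 81.3 ± 9.99 and 72.9 ± 9.24 FPKM, lay within it.

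Complete separation of the groups was seen for 12 of the 30 tested members, with the ZFP64-OE-labelled libraries below in 12 and above in 0. Of all tested genes, 21.9% were separated, 12.8% in the lower and 9.16% in the higher direction. Besides the 7 called, these were CD37, TSPAN9, CD151, CD82 and TSPAN5. Of the tested members, 26 had a log2 fold change below 0, and so did 53.2% of all tested genes.

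**Figure D4:**
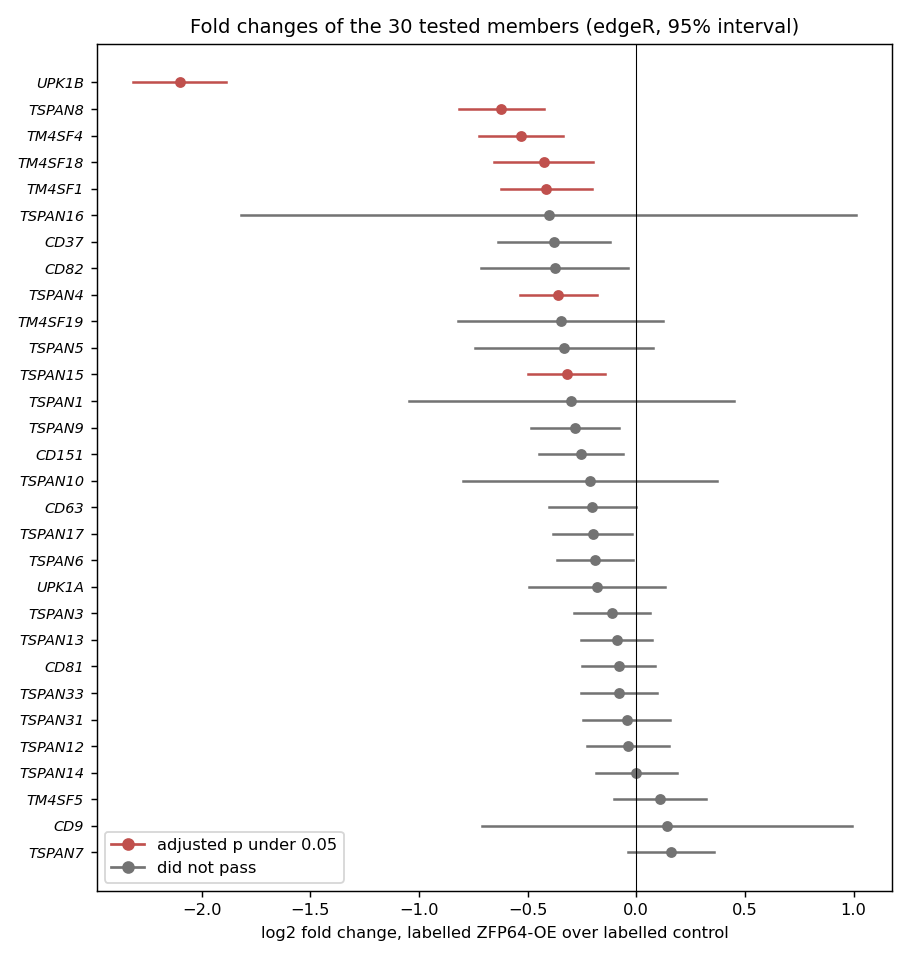
Log2 fold change (x axis, libraries labelled ZFP64-OE over those labelled control) with its 95% interval for each of the 30 tested members; red marks the 7 past the threshold. UPK1B at -2.10 is far from the rest, 26 points lie below 0, and the widest intervals belong to the low genes TSPAN16, CD9 and TSPAN1.

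Genes that work with tetraspanins are given by list, and each count stands against the 5.81% of all tested genes that passed, 4.03% lower and 1.78% higher. Of the integrin subunits that bind CD151 and other tetraspanins, 8 of 10 were tested and 0 passed, with log2 fold changes between -0.12 and 0.09. ITGB1, the shared beta chain, was at 1624 ± 109 and 1557 ± 177 CPM, and the laminin receptor subunits ITGA6 and ITGA3 had log2 fold changes of -0.10 and -0.07. Of the immunoglobulin partners of CD9 and CD81, 0 of 4 passed; PTGFRN lay just outside the threshold (log2 fold change -0.32, edgeR FDR-adjusted p = 0.0509) and IGSF8 was at 43.0 ± 0.787 and 46.9 ± 5.67 CPM. Of 5 genes that serve hepatitis C virus entry with CD81, 0 passed, and CLDN1, the claudin that binds CD81, was at 1019 ± 48.4 and 951 ± 141 CPM.

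Sorting into exosomes, for which tetraspanins serve as markers, gave 2 falls, 0 rises and 10 genes that did not pass among 12, where 4.03% of all tested genes fell. Nothing is read from so short a list. RAB27B, a small GTPase of vesicle docking, was at 7.87 ± 0.675 CPM in the ZFP64-OE-labelled libraries and 17.5 ± 1.45 CPM in the control-labelled ones (log2 fold change -1.15, edgeR FDR-adjusted p = 4.37e-07). SDC1, a syndecan that feeds vesicle budding through syntenin, fell by 0.84 on the log2 scale (edgeR FDR-adjusted p = 8.88e-07). Its partner syntenin, SDCBP, was at 132 ± 2.25 and 129 ± 6.72 CPM and did not pass, nor did RAB27A, at 18.6 ± 0.349 and 18.7 ± 1.09 CPM. FZD4, the receptor partner of TSPAN12, fell by 0.32 on the log2 scale (edgeR FDR-adjusted p = 0.0197), a call lost without ZFP64-OE-labelled replicate 2, without control-labelled replicate 1 or 3 (adjusted p up to 0.103) and in both limma fits on FPKM. Of the other membrane partners, ICAM1 rose (log2 fold change 0.43, adjusted p = 0.0052), a call lost without ZFP64-OE-labelled replicate 2 (adjusted p = 0.0638). Of 5 tested genes on that list, the other 4 did not pass.

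Endothelial and fibroblast markers were looked at because TM4SF1 is known from endothelium. Of 5 endothelial markers, KDR and TEK were at 0 counts in all libraries and VWF had at most 2. PECAM1 fell by 1.49 on the log2 scale, at 4.51 ± 1.07 against 12.7 ± 0.0646 CPM (edgeR FDR-adjusted p = 5.46e-07). CDH5, the other marker tested, was at 0.312 ± 0.0593 against 0.362 ± 0.0925 CPM and did not pass (edgeR FDR-adjusted p = 0.806). PECAM1 made up nearly all of the list's sum, 3.74 to 5.87 CPM in the ZFP64-OE-labelled libraries and 12.9 to 13.2 CPM in the control-labelled ones. The part of these markers in the fall of the TM4SF genes was not tested. Of 5 fibroblast markers, 0 of the 2 tested passed, and COL1A2 was at 0 counts in all libraries. ROM1, a photoreceptor tetraspanin whose symbol falls outside the rule, did not pass, and PRPH2 was too low to test.

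Several of the 7 calls were lost when 1 library was left out, which also makes a group smaller. The log2 fold changes then ran from -0.34 to -0.29 for TSPAN15 and from -0.50 to -0.39 for TM4SF18. They ran from -0.45 to -0.35 for TM4SF1 and from -0.41 to -0.27 for TSPAN4. Whether a loss came from the library or from the smaller group was not tested. UPK1B, TSPAN8 and TM4SF4 passed without any 1 of the 6 libraries. Only these 3 members passed without ZFP64-OE-labelled replicate 1 or without control-labelled replicate 2, and the number that fell was 5 without ZFP64-OE-labelled replicate 2, 5 without control-labelled replicate 3, 6 without ZFP64-OE-labelled replicate 3 and 8 without control-labelled replicate 1. The limma test on log2(FPKM + 1) called 4 members.

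**Figure D5:**
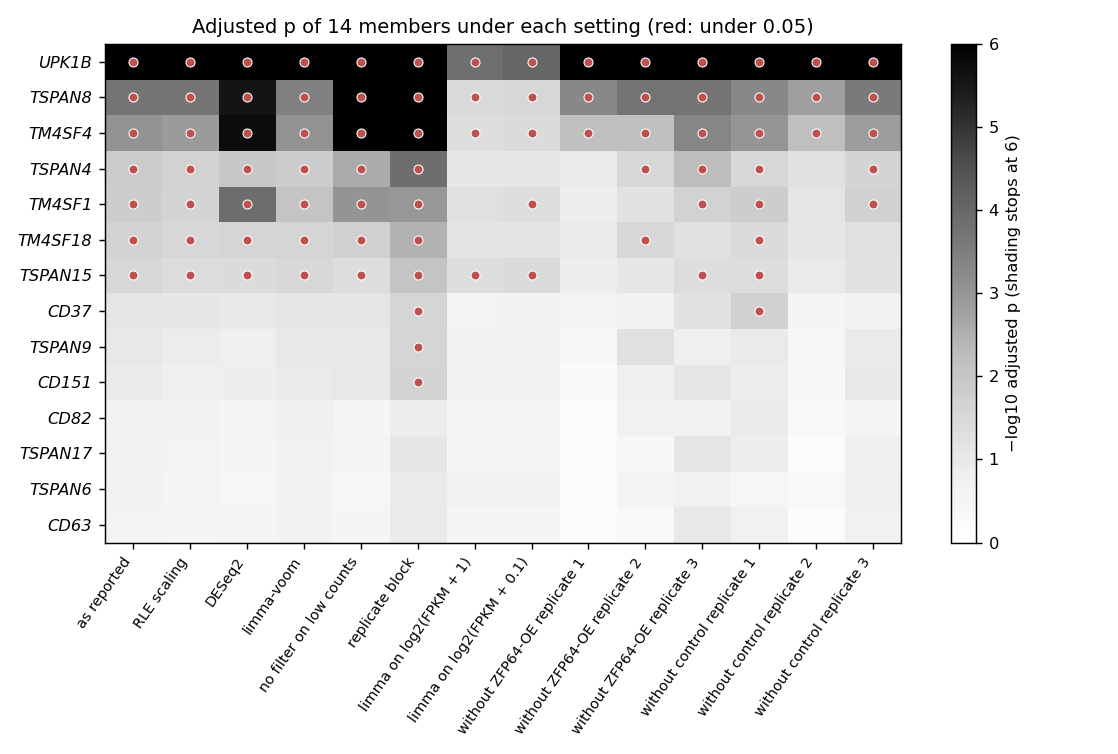
Adjusted p (shading, as −log10) of the 14 members with the smallest p in each of the 14 settings (x axis), with red points where it was under 0.05. UPK1B, TSPAN8 and TM4SF4 carry a point in every column, while TSPAN4, TM4SF1, TM4SF18 and TSPAN15 lose theirs without ZFP64-OE-labelled replicate 1 and without control-labelled replicate 2.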

How the data were processed

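RNA was extracted with Trizol and made into TruSeq libraries, per the labels' protocols. The submitters' processing notes list HISAT2 and GRCh38; counting program, annotation, strand and filters: not given in the sources used here. The deposited table of counts holds raw whole-number counts for 60623 genes, not normalized. The deposited FPKM table matches these counts per length and library total, since 1 length per gene links both tables in each of 24388 genes counted in every library (relative tolerance 1e-06). Columns were assigned by the codes in the sample titles. Positions are from GENCODE v29 on GRCh38, which may not be the authors' annotation, and start regions from RefSeq.

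Genes passed edgeR's filterByExpr (minimum count 10, minimum total 15). The test was edgeR 4.0.16 (R 4.3.3) with TMM scaling (factors 0.963 to 1.05), robust quasi-likelihood F-tests on the group alone and Benjamini-Hochberg adjustment. Standard errors are the log2 fold change over the square root of F. Alternatives were RLE scaling, DESeq2 1.42.0, limma 3.58.1 (voom, and on log2 FPKM with pseudocounts of 1 and 0.1), no filter, a replicate block and each library left out. Replicates differed beyond sampling noise, with a chi-square per gene of at least 11.6. The first principal component (39.4% of variance) separated the groups, and the second (23.8%) set replicate 1 labelled control apart. No batch is labelled.

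The members and lists were chosen with earlier results of these data known. By rule, members past the threshold, the 3 nearest it on each side and the 5 most abundant are described in full, with up to 3 called genes of each partner list. The start regions shown, the neighbouring genes and the motifs were chosen after their values were seen.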

Additional observations from a re-analysis of the deposited data

How the results depend on the processing

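The fall of UPK1B, TSPAN8 and TM4SF4 kept its direction and its side of the threshold under all 13 alternatives. The number of members past the threshold, all lower, was 7 and became 4 with limma on log2(FPKM + 1), and 3 to 8 when 1 library was left out; it stayed at 7 with RLE scaling, DESeq2, limma-voom and no filter, and the same genes were called. Over all genes, the 1114 calls became 439 and 470 with limma on log2(FPKM + 1) and log2(FPKM + 0.1), and 587 to 1535 when 1 library was left out. The cause was not tested. With the replicate number as a block, 2096 genes and 10 members passed, the members being the 7 with CD37, TSPAN9 and CD151. Same-numbered libraries did not deviate together (correlations 0.0183, 0.0198 and 0.0968), and 1 of 6 comparisons matched best by number, so the numbers were not taken as pairs.

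Some members with no call changed sign. TSPAN14 was at -0.000284 with limma-voom, -0.0273 and -0.0333 in the limma fits on FPKM, and between -0.0834 and 0.0582 when 1 library was left out. TSPAN16 was at 0.130 with limma-voom and between -1.10 and 0.0110 with 1 library left out. In the same way CD9 ranged from -0.0616 to 0.442, UPK1A from -0.317 to 0.0307, TSPAN1 from -0.627 to 0.125 and TSPAN31 from -0.106 to 0.0281. The 7 members not tested, with at most 7 counts in a library, were left out by the filter on low counts. Without that filter 36 members were tested and the same genes were called.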
